A study of Homo sapiens with 18 samples.

Results

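Matrix metalloproteases (MMPs), the related protease ADAMTS1 and their inhibitors, the tissue inhibitors of metalloproteases (TIMPs), were followed in brain metastatic derivatives of H1650 and PC9, established lines of human lung adenocarcinoma that carry an activating mutation of EGFR. The 10 genes MMP1, MMP2, MMP7, MMP9, MMP10, MMP14, ADAMTS1, TIMP1, TIMP2 and TIMP3 were taken by Ensembl identifier from 60764 identifiers found in the count table of either line. All 10 were listed in both tables. Poly-A RNA was sequenced from 3 groups per line with 3 libraries each: Tr-BrM S100A9-inh, in which S100A9 was inhibited, Tr-BrM control, and BrM control. Group names are kept as labelled, since the meaning of Tr and the means of inhibition are not given in the sources. No label states whether replicate libraries are separate cultures. The p-values therefore reflect variation between libraries that may be technical, and a Tr-BrM and a BrM group may each be a single derivative.

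Metalloproteases are made as inactive precursors whose zinc site is blocked by a propeptide, and they become active when the propeptide is cut off or displaced. MMP14 is anchored in the cell membrane, cuts collagen, and activates the precursor of MMP2 in a complex in which TIMP2 acts as the bridge. TIMPs bind active proteases at their zinc site, and TIMP3, which stays attached to the extracellular matrix, also inhibits ADAM and ADAMTS proteases. RNA levels say nothing of how much of each enzyme was active.

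Total counts were 17.4 to 27.11 M per library in H1650 and 18.17 to 21.75 M in PC9. Levels are given in CPM, a gene's counts per 1000000 counts of the library, with the library total adjusted by the trimmed mean of M values (TMM), and changes as log2 fold changes ± standard error (SE) from edgeR's quasi-likelihood test with 3 against 3 libraries. "Rose" and "fell" are used of genes with a Benjamini-Hochberg adjusted p under 0.05 over all tested genes of a line. Whether the libraries of compared groups overlapped is stated gene by gene, and the share of all genes without overlap was not counted. The targeted gene, S100A9, was at 95.2, 88.2 and 105 CPM in H1650 S100A9-inh libraries, at 336, 293 and 292 CPM in Tr-BrM controls and at 217, 206 and 199 CPM in BrM controls. In PC9 S100A9 was at 33.9, 30.4 and 35.5 CPM in S100A9-inh libraries, at 739, 738 and 759 CPM in Tr-BrM controls and at 119, 127 and 120 CPM in BrM controls. In both lines the libraries of a group stood together and apart from the other groups, lowest in S100A9-inh. The labels do not say how S100A9 should differ between Tr-BrM and BrM controls, so these values do not check those 2 labels. Of the markers of lung lineage (NKX2-1, NAPSA, SFTPB and SFTPC), the summed level was at most 1.34 CPM in any library of either line. The 6 epithelial markers summed to 8807 to 9154, 9040 to 9372 and 10786.5 to 10856 CPM in H1650 S100A9-inh, Tr-BrM control and BrM control libraries. In PC9 the same order gave 21225 to 23378, 19992 to 20520 and 26078.5 to 26548.5 CPM. Against BrM controls, 4 of the 6 fell and 1 rose in H1650 Tr-BrM controls, and 5 fell in PC9. Of all tested genes 31.7% and 30.3% fell there. The 8 fibroblast markers summed to 183 to 192 CPM in H1650 S100A9-inh libraries, 161 to 182 CPM in Tr-BrM controls and 23.9 to 24.4 CPM in BrM controls. In H1650 Tr-BrM controls 7 of them rose against BrM controls, as did 32.2% of all tested genes. In H1650 S100A9-inh libraries the endothelial markers summed to 7.44 to 12.4, the myeloid markers to 102 to 109 and the astrocyte markers to 169 to 181 CPM. In H1650 Tr-BrM controls the same sums were 6.90 to 8.63, 88.2 to 93.6 and 226 to 237 CPM, and in BrM controls 2.12 to 5.19, 89.96 to 92.5 and 31.7 to 40.5 CPM. The myeloid sum is mostly CSF1R, which averaged 77.5 CPM in H1650 Tr-BrM controls and 85.9 CPM in BrM controls and fell by 0.15, while PTPRC, ITGAM and AIF1 rose by 2.23, 2.37 and 1.81. In PC9 the fibroblast markers summed to 17.3 to 20.1 CPM in S100A9-inh libraries, 12.8 to 15.1 CPM in Tr-BrM controls and 26.7 to 27.2 CPM in BrM controls, with DCN, LUM, PDGFRA and THY1 at 0 in both control groups. The endothelial, myeloid and astrocyte markers of PC9 summed to 23.5 to 28.2, 21.6 to 26.0 and 34.2 to 37.7 CPM in S100A9-inh libraries, to 40.3 to 41.2, 15.6 to 16.6 and 97.7 to 103 CPM in Tr-BrM controls and to 22.9 to 26.6, 32.1 to 32.8 and 15.4 to 16.5 CPM in BrM controls. There too the myeloid sum follows CSF1R, which fell by 2.01 in PC9 Tr-BrM against BrM controls, while ITGAM and CD14, the other 2 myeloid markers tested, rose by 2.28 and 1.89. The part of these markers in the results was not tested, and in bulk RNA a smaller number of expressing cells and less RNA per cell cannot be told apart.

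The promoter sequences of MMP10 and TIMP3, which moved furthest up and down in H1650 Tr-BrM controls among the 5 genes whose promoter sequences were used here, are shown with that of MMP7, which lies in the same gene cluster as MMP10 but was barely detected. Each is the 250 bases before the RefSeq start in GRCh38.p14, written 5′ to 3′ on the gene's strand, with capitals marking the letters searched for: TGACTCA (bound by AP-1), AGGAAG (bound by ETS factors), TATAAA (the TATA box) and GGGCGG (bound by Sp1), on either strand.
MMP10, chr11:102780629-102780878, reverse strand: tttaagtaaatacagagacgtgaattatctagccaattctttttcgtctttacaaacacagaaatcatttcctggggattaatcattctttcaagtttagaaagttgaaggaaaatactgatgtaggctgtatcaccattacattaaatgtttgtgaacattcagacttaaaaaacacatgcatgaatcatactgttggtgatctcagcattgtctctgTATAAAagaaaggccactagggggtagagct
MMP7, chr11:102530748-102530997, reverse strand: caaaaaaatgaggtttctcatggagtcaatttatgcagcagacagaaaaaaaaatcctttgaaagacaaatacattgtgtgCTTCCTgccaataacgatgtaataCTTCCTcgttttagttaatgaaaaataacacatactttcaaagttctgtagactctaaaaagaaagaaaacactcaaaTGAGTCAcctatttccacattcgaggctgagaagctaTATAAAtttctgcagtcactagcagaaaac
TIMP3, chr22:32801455-32801704, forward strand: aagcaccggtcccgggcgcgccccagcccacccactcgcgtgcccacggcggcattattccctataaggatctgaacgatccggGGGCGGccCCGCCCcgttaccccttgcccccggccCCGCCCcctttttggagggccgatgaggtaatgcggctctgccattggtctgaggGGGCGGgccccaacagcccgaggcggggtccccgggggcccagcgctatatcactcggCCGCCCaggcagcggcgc
MMP10 held a TATA box 31 bases before the start and none of the other letters, and MMP7 held a TATA box 30 bases before it, 1 AP-1 match and 2 ETS matches. TIMP3 held 5 GGGCGG matches and no TATA box. Of the other 2 promoters, MMP14 held 1 GGGCGG match, and TIMP1 held 2 and 1 ETS match. Among 35116 RefSeq promoters of this length, 4.2% held TGACTCA, 28.7% AGGAAG, 10.7% TATAAA and 42.6% GGGCGG. These matches describe the letters and do not show that a factor binds there.

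In H1650, Tr-BrM controls differed from BrM controls in all 9 genes of the set that could be tested: MMP1, MMP9, MMP10, MMP14, ADAMTS1 and TIMP2 rose, and MMP2, TIMP1 and TIMP3 fell. The median of the 9 log2 fold changes was 0.82, against 0.00 over all 17937 genes tested. Among all tested genes 32.2% rose and 31.7% fell, 63.9% in either direction. In BrM controls MMP2 and MMP14 were the main proteases, while Tr-BrM controls had more MMP10, ADAMTS1 and MMP14 and less MMP2. Of the inhibitors, TIMP2 was higher, and TIMP1 and TIMP3 were lower, in Tr-BrM controls.

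ADAMTS1 (ENSG00000154734, chr21:26835747-26845409, reverse strand), a secreted protease that cuts the proteoglycans aggrecan and versican, was at 39.3, 41.3 and 39.3 CPM in H1650 Tr-BrM controls and at 1.22, 1.36 and 2.13 CPM in BrM controls. The groups were far apart, and ADAMTS1 rose by 4.71 ± 0.104 (adjusted p = 5.76e-25). MMP10 (ENSG00000166670, chr11:102770503-102780628, reverse strand), stromelysin-2, which degrades proteoglycans and laminin and can activate other MMP precursors, was at 12.5, 12.9 and 12.5 CPM in Tr-BrM controls and at 0.542, 0.591 and 0.591 CPM in BrM controls. It rose by 4.45 ± 0.148 (adjusted p = 1.03e-20), from a BrM level that rests on 35 counts over 3 libraries. MMP14 (ENSG00000157227, chr14:22836557-22849027, forward strand) stood at 101, 107 and 97.9 CPM in Tr-BrM controls and at 47.6, 49.8 and 48.8 CPM in BrM controls, without overlap, and rose by 1.07 ± 0.0434 (adjusted p = 1.14e-18).

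MMP2 (ENSG00000087245, chr16:55389700-55506691, forward strand), gelatinase A and the partner that MMP14 activates, moved the other way. It was at 10.1, 10.7 and 9.86 CPM in H1650 Tr-BrM controls and at 43.2, 46.8 and 47.9 CPM in BrM controls. The groups did not overlap, and MMP2 fell by 2.16 ± 0.0679 on the log2 scale (adjusted p = 2.59e-21).

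The other gelatinase, MMP9 (ENSG00000100985, chr20:46008908-46016561, forward strand), was low, at 2.91, 1.98 and 3.11 CPM in Tr-BrM controls and 1.45, 1.86 and 1.54 CPM in BrM controls, and rose by 0.69 ± 0.205 (adjusted p = 0.00448). MMP9 shares 430 exonic bases with SLC12A5-AS1, an antisense gene with 24 to 31 counts in Tr-BrM controls and 11 to 19 in BrM controls against 54 to 64 and 26 to 41 counts for MMP9. If strand was not used in counting, their reads cannot be told apart.

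MMP1 (ENSG00000196611, chr11:102789920-102798160, reverse strand), interstitial collagenase, was at 2.86, 3.95 and 1.07 CPM in H1650 Tr-BrM controls and at 0.813, 2.05 and 1.77 CPM in BrM controls. The groups overlapped, since the lowest Tr-BrM library lay below both higher BrM libraries. MMP1 passed at 0.83 ± 0.309 (adjusted p = 0.0213), but the call was lost without Tr-BrM control replicate 2 (0.35, adjusted p = 0.389), without BrM control replicate 1 (0.49, adjusted p = 0.178) and with DESeq2 (0.78, adjusted p = 0.245). MMP1 shares 150 exonic bases with the pseudogene WTAPP1, which had 13 to 35 counts in Tr-BrM controls and 0 to 2 in BrM controls.

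MMP7 (ENSG00000137673, chr11:102520508-102530753, reverse strand), matrilysin, an epithelial protease, had too few counts to be tested in H1650. It had 4, 9 and 13 counts in S100A9-inh libraries, 0, 8 and 11 in Tr-BrM controls and 6, 4 and 1 in BrM controls, and the 3 groups overlapped.

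Among the inhibitors, TIMP3 (ENSG00000100234, chr22:32801701-32863043, forward strand) stood at 24.6, 26.9 and 23.0 CPM in H1650 Tr-BrM controls and at 216, 217 and 214 CPM in BrM controls, and fell by 3.11 ± 0.0492 (adjusted p = 3.24e-28). TIMP1 (ENSG00000102265, chrX:47582313-47586789, forward strand), a secreted inhibitor of most MMPs, was at 24.6, 22.1 and 15.4 CPM in Tr-BrM controls and at 74.6, 78.5 and 80.0 CPM in BrM controls, and fell by 1.90 ± 0.11 (adjusted p = 4.83e-15). Neither pair of groups overlapped, although TIMP1 varied more between Tr-BrM libraries than between BrM libraries. TIMP2 (ENSG00000035862, chr17:78852977-78925387, reverse strand) was at 353, 345 and 351 CPM in Tr-BrM controls and at 201, 197 and 196 CPM in BrM controls, and rose by 0.82 ± 0.0299 (adjusted p = 9.21e-20). The 3 inhibitors thus parted, with TIMP2 higher and the others lower. TIMP1 and TIMP3 lie within introns of SYN1 and SYN3, which had at most 24 and 2 counts in any H1650 library. TIMP2 shares 198 exonic bases with CEP295NL, which had at most 18 counts in an H1650 library.

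**Figure D1:**
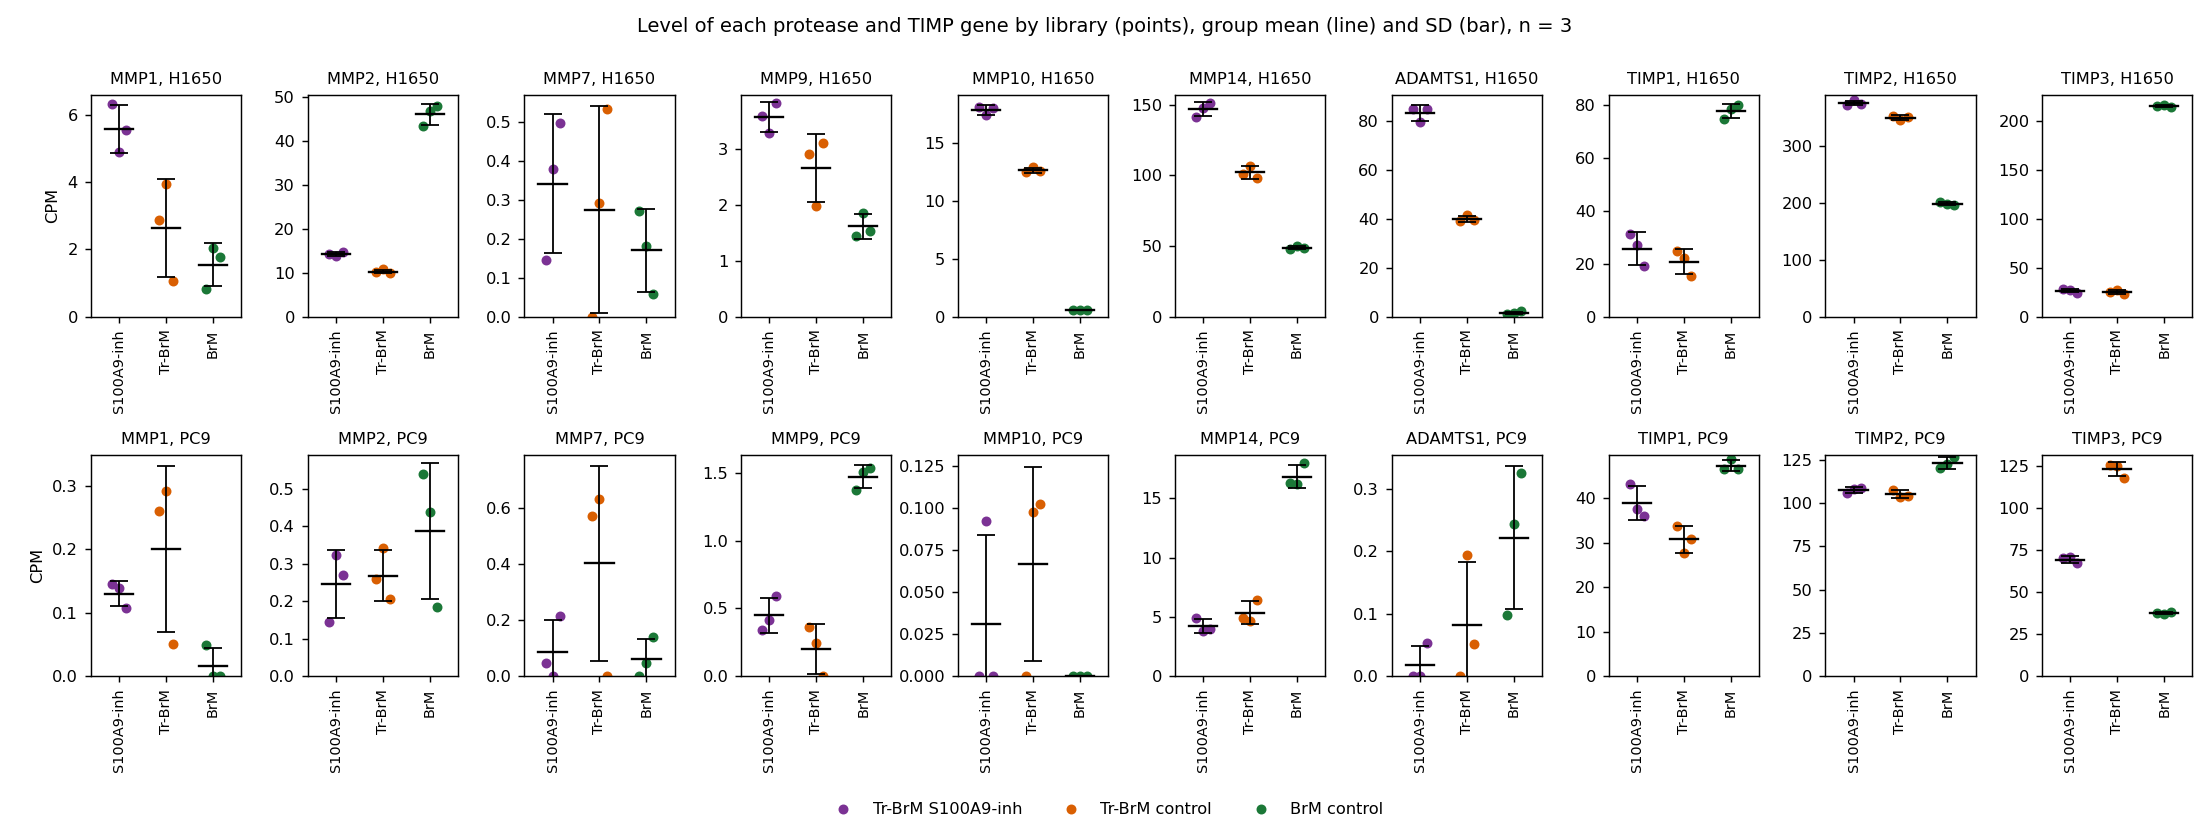
Each panel plots the CPM of a gene in every library (points) of S100A9-inh, Tr-BrM control and BrM control, with the group mean (line) and SD (bar), for H1650 above and PC9 below; axes start at 0 and differ between panels, and levels are not set side by side between lines because the tables were deposited separately. In H1650 TIMP3 stood at 214 to 217 CPM in BrM controls and under 30 CPM elsewhere, while in PC9 it was lowest in BrM controls.

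Under S100A9 inhibition in H1650, 6 of the 9 tested genes rose against Tr-BrM controls and none fell: ADAMTS1, MMP1, MMP2, MMP10, MMP14 and TIMP2. Among all tested genes 15.4% rose and 13.8% fell, 29.2% in either direction, and the median log2 fold change was 0.48 over the 9 genes and 0.00 over all genes. With library size as the only scaling, 40.8% of the called genes were higher, against 52.8% here, and 5 of the 6 calls stood, TIMP2 being lost (0.07, adjusted p = 0.0623). This comparison and the previous one share the Tr-BrM control libraries, so their values are not independent of each other.

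ADAMTS1 was at 84.9, 79.5 and 85.0 CPM in H1650 S100A9-inh libraries, against the 39.3 to 41.3 CPM of Tr-BrM controls given above, and rose by 1.05 ± 0.051 (adjusted p = 2.11e-15). MMP14 was at 142, 147 and 151 CPM in S100A9-inh libraries, against 97.9 to 107 CPM in Tr-BrM controls, and rose by 0.52 ± 0.0381 (adjusted p = 1.16e-11). Both proteases, already higher in Tr-BrM than in BrM controls, thus stood higher again in S100A9-inh libraries.

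MMP10 was at 18.1, 17.3 and 18.02 CPM in S100A9-inh libraries, against 12.5 to 12.9 CPM in Tr-BrM controls, and rose by 0.49 ± 0.0762 (adjusted p = 9.17e-06). MMP2 was at 14.3, 13.9 and 14.7 CPM in S100A9-inh libraries, against 9.86 to 10.7 CPM in Tr-BrM controls, and rose by 0.48 ± 0.0766 (adjusted p = 1.73e-05). For MMP2 this rise was small beside the gap to BrM controls, against which it still fell by 1.68 ± 0.0629 in S100A9-inh libraries.

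MMP1 was at 6.31, 4.89 and 5.56 CPM in S100A9-inh libraries, against 1.07 to 3.95 CPM in Tr-BrM controls, and rose by 1.05 ± 0.24 (adjusted p = 0.00124). Its groups did not overlap, but the call was lost with DESeq2 (1.08, adjusted p = 0.121), and the fold ran between 0.69 without Tr-BrM control replicate 3 and 1.52 without Tr-BrM control replicate 2. The overlapping WTAPP1 had 27 to 42 counts in S100A9-inh libraries, against 116 to 172 for MMP1. TIMP2 was at 373, 380 and 374 CPM in S100A9-inh libraries, against 345 to 353 CPM in Tr-BrM controls, a rise of 0.10 ± 0.0287 (adjusted p = 0.0067).

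MMP9, TIMP1 and TIMP3 did not pass in this comparison. MMP9 was at 3.598, 3.29 and 3.83 CPM in S100A9-inh libraries (0.45 ± 0.173, adjusted p = 0.0511), above each Tr-BrM control library. TIMP1 was at 31.1, 27.0 and 19.0 CPM (0.31 ± 0.122, adjusted p = 0.0587) and TIMP3 at 28.5, 26.7 and 24.6 CPM (0.09 ± 0.0595, adjusted p = 0.287), and both overlapped the Tr-BrM controls. Against BrM controls, S100A9-inh libraries had the same 6 genes higher and the same 3 lower as Tr-BrM controls had: ADAMTS1 rose by 5.76 ± 0.0924, MMP10 by 4.94 ± 0.139, MMP1 by 1.87 ± 0.273, MMP14 by 1.59 ± 0.0419, MMP9 by 1.14 ± 0.192 and TIMP2 by 0.92 ± 0.0298, while TIMP1 fell by 1.59 ± 0.105 and TIMP3 by 3.02 ± 0.0477. Both comparisons use the same BrM libraries, and 63.6% of all tested genes were called in this one, 32.5% higher and 31.2% lower.

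In PC9 the proteases were low beside the inhibitors, which made up most of the RNA of the set, as they also did in H1650. MMP1, MMP2, MMP7, MMP10 and ADAMTS1 had too few counts to be tested. MMP1 had 3, 3 and 2 counts in S100A9-inh libraries, 5, 6 and 1 in Tr-BrM controls and 1, 0 and 0 in BrM controls. MMP2 had 3, 7 and 5 counts in S100A9-inh libraries, 5, 7 and 4 in Tr-BrM controls and 11, 9 and 4 in BrM controls. These 2 genes were near the limit of detection in every group.

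MMP7 had 1, 0 and 4 counts in PC9 S100A9-inh libraries, 11, 13 and 0 in Tr-BrM controls and 0, 1 and 3 in BrM controls, so 2 Tr-BrM control libraries were above every other PC9 library and the third held none. MMP10 had 2 counts over the S100A9-inh libraries, 4 over the Tr-BrM controls and 0 over the BrM controls. ADAMTS1 had 0, 0 and 1 counts in S100A9-inh libraries, 0, 4 and 1 in Tr-BrM controls and 2, 5 and 7 in BrM controls. The genes that stood out most in H1650 Tr-BrM controls, ADAMTS1 and MMP10, were thus at 5 and 4 counts over 3 libraries in PC9 Tr-BrM controls.

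All 5 tested genes differed between PC9 Tr-BrM controls and BrM controls: TIMP3 rose, and MMP9, MMP14, TIMP1 and TIMP2 fell. Among all 16169 genes tested in PC9, 29.6% rose and 30.3% fell, 59.9% in either direction, and the median log2 fold change was -0.62 over the 5 genes and 0.00 over all genes. MMP14 was at 4.95, 4.62 and 6.44 CPM in Tr-BrM controls and at 16.3, 16.2 and 17.97 CPM in BrM controls, and fell by 1.66 ± 0.121 (adjusted p = 4.79e-13). MMP9 was at 0.365, 0.243 and 0 CPM in Tr-BrM controls, or 7, 5 and 0 counts, and at 1.37, 1.51 and 1.53 CPM in BrM controls, or 28, 31 and 33 counts. It fell by 2.83 ± 0.477 (adjusted p = 7.01e-06), and both proteases were without overlap between the groups. The MMP9 value rests on few counts and ran between -3.49 without Tr-BrM control replicate 1 and -2.26 without Tr-BrM control replicate 3, past the threshold in each case. Without the BrM control libraries, where it was high, MMP9 would not have met the filter on low counts. Its falls against BrM controls, and its place among the tested genes, are therefore not independent of the filter. SLC12A5-AS1, the antisense gene that shares exonic bases with MMP9, had 1 count in each PC9 Tr-BrM control library and 3 to 11 in BrM controls. If strand was not used in counting, these reads cannot be told apart from those of MMP9.

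TIMP3 was at 125, 125 and 118 CPM in PC9 Tr-BrM controls and at 37.7, 36.7 and 37.8 CPM in BrM controls, and rose by 1.71 ± 0.0503 (adjusted p = 8.58e-23). TIMP1 was at 33.7, 27.6 and 30.9 CPM in Tr-BrM controls and at 46.6, 48.7 and 46.6 CPM in BrM controls, and fell by 0.62 ± 0.0717 (adjusted p = 8.88e-09). TIMP2 was at 108, 103 and 104 CPM in Tr-BrM controls and at 120, 122 and 127 CPM in BrM controls, and fell by 0.23 ± 0.043 (adjusted p = 3.00e-05). The groups did not overlap for any of the 3 inhibitors, but how often that held over all genes was not counted. TIMP3, which fell most in H1650, was the gene that rose in PC9.

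Under S100A9 inhibition in PC9, TIMP3 fell and TIMP1 rose against Tr-BrM controls, while 26.3% of all tested genes rose and 26.1% fell, 52.5% in either direction. TIMP3 was at 70.1, 70.5 and 66.9 CPM in S100A9-inh libraries, between the 118 to 125 CPM of Tr-BrM controls and the 36.7 to 37.8 CPM of BrM controls, and fell by 0.83 ± 0.0474 (adjusted p = 2.96e-15). TIMP1 was at 43.2, 37.6 and 36.0 CPM in S100A9-inh libraries, above the 27.6 to 33.7 CPM of Tr-BrM controls, and rose by 0.34 ± 0.0731 (adjusted p = 0.000217). For both genes the S100A9-inh libraries lay between the control groups.

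MMP14 was at 4.94, 3.83 and 3.98 CPM in PC9 S100A9-inh libraries and did not pass against Tr-BrM controls (-0.33 ± 0.148, adjusted p = 0.0635), and passed without Tr-BrM control replicate 2 (-0.43, adjusted p = 0.0298) or without S100A9-inh replicate 1 (-0.45, adjusted p = 0.0146). S100A9-inh replicate 1 of PC9 stood apart from its fellow libraries over all genes, with a chi-square per degree of freedom of 6.510 and 5.849 against them where they had 2.051 with each other. Smaller gaps of this kind were seen for PC9 Tr-BrM control replicate 1 (3.059 and 2.752 against 1.756). In H1650 they were seen for S100A9-inh replicate 2 (3.887 and 3.242 against 2.252) and Tr-BrM control replicate 1 (3.111 and 3.277 against 2.128). MMP9 was at 0.339, 0.415 and 0.591 CPM in S100A9-inh libraries, or 7, 9 and 11 counts (1.11 ± 0.585, adjusted p = 0.113). The overlapping SLC12A5-AS1 had 3 to 9 counts in these libraries. TIMP2, at 106, 108 and 109 CPM, gave 0.03 ± 0.0434 (adjusted p = 0.55). Against BrM controls all 5 tested genes differed, in the directions seen in Tr-BrM controls: TIMP3 rose by 0.89 ± 0.0519, and MMP14 fell by 1.99 ± 0.125, MMP9 by 1.71 ± 0.409, TIMP1 by 0.28 ± 0.0698 and TIMP2 by 0.20 ± 0.0429. In that comparison 46.3% of all tested genes were called, 22.7% higher and 23.6% lower, and it shares its libraries with the others.

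**Figure D2:**
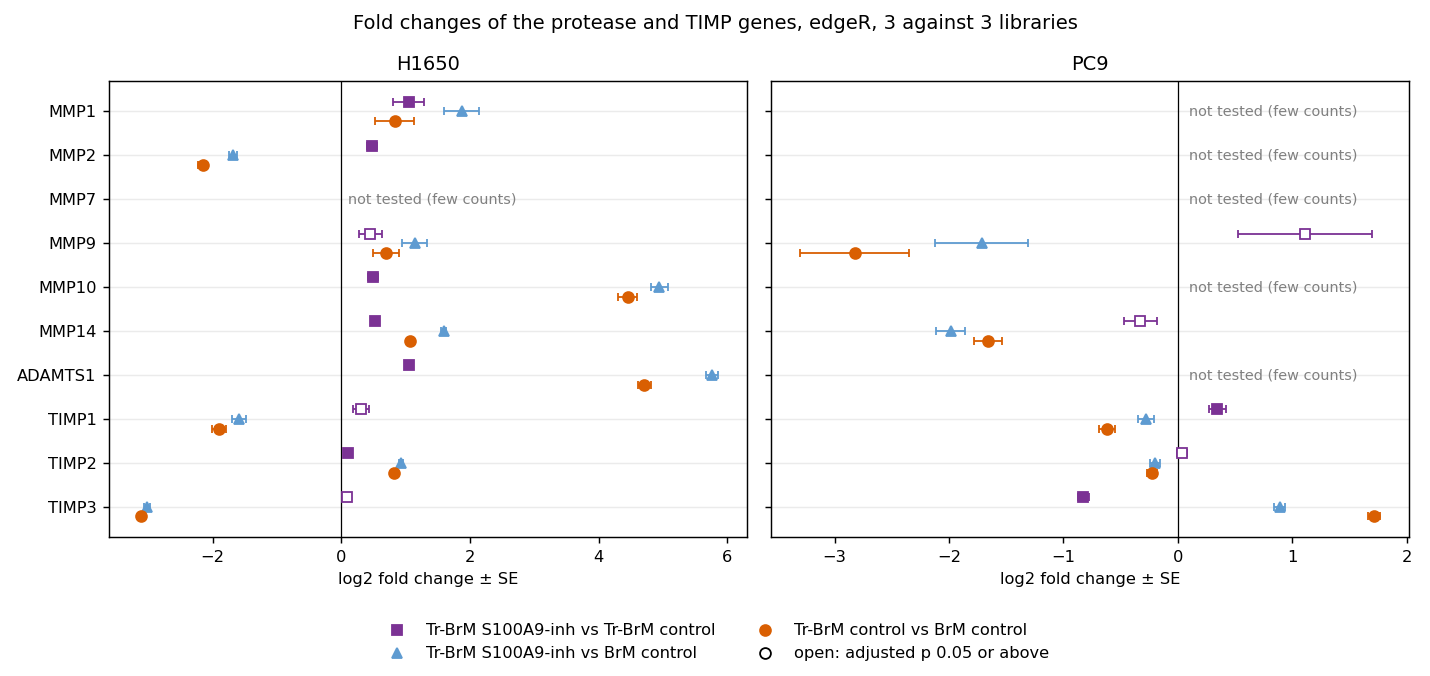
Log2 fold change ± SE of each gene in 3 comparisons per line, with open symbols where the adjusted p was 0.05 or above. MMP14 and TIMP2 lie to the right of 0 in H1650 and to the left in PC9 for both comparisons against BrM controls, and TIMP3 lies to the left in H1650 and to the right in PC9.

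The difference between the lines was tested as an interaction in a model of all 18 libraries, over 14877 genes. For Tr-BrM controls against BrM controls all 5 genes tested in both lines differed, where 65.7% of all genes did. TIMP3 had the largest gap, its log2 fold change being 4.804 ± 0.0718 higher in PC9 than in H1650 (adjusted p = 6.41e-37), and TIMP1 had 1.26 ± 0.153 (adjusted p = 2.95e-09), a smaller fall in PC9. The fold changes of MMP9 (-3.54 ± 0.484, adjusted p = 4.27e-08), MMP14 (-2.74 ± 0.111, adjusted p = 7.06e-23) and TIMP2 (-1.07 ± 0.0488, adjusted p = 3.03e-21) were lower in PC9, and each of these genes rose in H1650 and fell in PC9. The MMP9 difference ran between -4.22 without PC9 Tr-BrM control replicate 1 and -2.97 without PC9 Tr-BrM control replicate 3. On the PC9 side MMP9 entered this test only through its BrM control counts. For S100A9-inh against Tr-BrM controls TIMP3 (-0.91 ± 0.0757, adjusted p = 6.40e-13) and MMP14 (-0.85 ± 0.139, adjusted p = 2.81e-06) differed between the lines, where 51.2% of all genes did. MMP9, TIMP1 and TIMP2 did not pass, at 0.67, 0.04 and -0.07, and MMP9 ran between 0.10 without PC9 Tr-BrM control replicate 3 and 1.34 without PC9 Tr-BrM control replicate 1.

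To set genes beside each other, CPM was divided by the length in kilobases (kb) of the union of each gene's exons in GENCODE 29, which can differ from the transcripts made in these cells. In H1650 BrM controls the order per kb was TIMP1 at 50.4 ± 1.82, TIMP3 at 46.8 ± 0.24, TIMP2 at 35.2 ± 0.437, MMP14 at 10.9 ± 0.236 and MMP2 at 9.32 ± 0.496 CPM per kb (SD, n = 3), with every other gene under 1. In Tr-BrM controls it was TIMP2 at 62.1 ± 0.719, MMP14 at 22.8 ± 1.02, TIMP1 at 13.5 ± 3.09, MMP10 at 7.18 ± 0.122, ADAMTS1 at 5.66 ± 0.168, TIMP3 at 5.40 ± 0.425 and MMP2 at 2.08 ± 0.0885 CPM per kb. ADAMTS1 and TIMP3 overlapped there. In S100A9-inh libraries it was TIMP2 at 66.7 ± 0.684, MMP14 at 32.9 ± 1.09, TIMP1 at 16.7 ± 3.98, ADAMTS1 at 11.8 ± 0.448, MMP10 at 10.1 ± 0.231, TIMP3 at 5.78 ± 0.417, MMP2 at 2.90 ± 0.0817 and MMP1 at 2.84 ± 0.361 CPM per kb, where MMP2 and MMP1 overlapped. Per kb, ADAMTS1 thus stood above MMP10 in every S100A9-inh library and below it in every Tr-BrM control library. In CPM, ADAMTS1 was above MMP10 in both groups, so this order depends on the lengths used.

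In PC9 the inhibitors led in all groups. TIMP1, TIMP2 and TIMP3 were at 25.3 ± 2.44, 19.1 ± 0.30 and 15.03 ± 0.423 CPM per kb in S100A9-inh libraries, at 19.96 ± 1.98, 18.6 ± 0.418 and 26.7 ± 0.915 in Tr-BrM controls and at 30.7 ± 0.789, 21.9 ± 0.579 and 8.13 ± 0.126 in BrM controls (SD, n = 3). TIMP3 was thus the highest of the 3 in Tr-BrM controls and the lowest in the other groups. MMP14 was the highest protease of the set, at 0.951 ± 0.135 CPM per kb in S100A9-inh libraries, 1.196 ± 0.218 in Tr-BrM controls and 3.77 ± 0.222 in BrM controls, and MMP9 came next in BrM controls at 0.63 ± 0.0366.

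The summed level per kb of the 7 proteases over that of the 3 TIMPs ran in opposite order in the lines. In H1650 the ratio was 0.667, 0.672 and 0.758 in S100A9-inh libraries, 0.477, 0.519 and 0.501 in Tr-BrM controls and 0.161, 0.173 and 0.171 in BrM controls. In PC9 it was 0.0222, 0.0207 and 0.0237 in S100A9-inh libraries, 0.0248, 0.0270 and 0.0246 in Tr-BrM controls and 0.0733, 0.0722 and 0.0792 in BrM controls. No groups of a line overlapped, but the PC9 sums include MMP1, MMP2, MMP7, MMP10 and ADAMTS1, which had too few counts to be tested. Of the PC9 protease sum MMP7 gave 10.1% in Tr-BrM controls (0 to 15.9% by library) and 2.78% in S100A9-inh libraries (0 to 6.84%). The order of S100A9-inh libraries and Tr-BrM controls in PC9 therefore rests in part on counts near the limit of detection. The ratio is one of RNA levels and was not tested, and MMP14 gave at least 48.9% of the mean protease sum in every group of both lines.

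The make-up behind the ratio also changed. MMP14 gave 52.9% of the H1650 protease sum in S100A9-inh libraries, 56.6% in Tr-BrM controls and 48.9% in BrM controls. MMP2 gave 4.66% in S100A9-inh libraries, 5.14% in Tr-BrM controls and 41.7% in BrM controls. ADAMTS1 gave 18.9% in S100A9-inh libraries, 14.0% in Tr-BrM controls and 0.992% in BrM controls, and MMP10 gave 16.3%, 17.8% and 1.46% of the sum in S100A9-inh, Tr-BrM control and BrM control libraries. Per kb, the second protease after MMP14 was thus MMP2 in BrM controls, MMP10 in Tr-BrM controls and ADAMTS1 in S100A9-inh libraries. The order of MMP10 and ADAMTS1 depends on the exon lengths used, 1758 and 7063 bases. In CPM, ADAMTS1 was above MMP10 in Tr-BrM controls (means 39.97 and 12.6) as well as in S100A9-inh libraries (83.1 and 17.8). Of the H1650 inhibitor sum TIMP2 gave 74.9% in S100A9-inh libraries, 76.8% in Tr-BrM controls and 26.6% in BrM controls. In PC9 TIMP3 gave 25.3% of the inhibitor sum in S100A9-inh libraries, 40.9% in Tr-BrM controls and 13.4% in BrM controls.

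**Figure D3:**
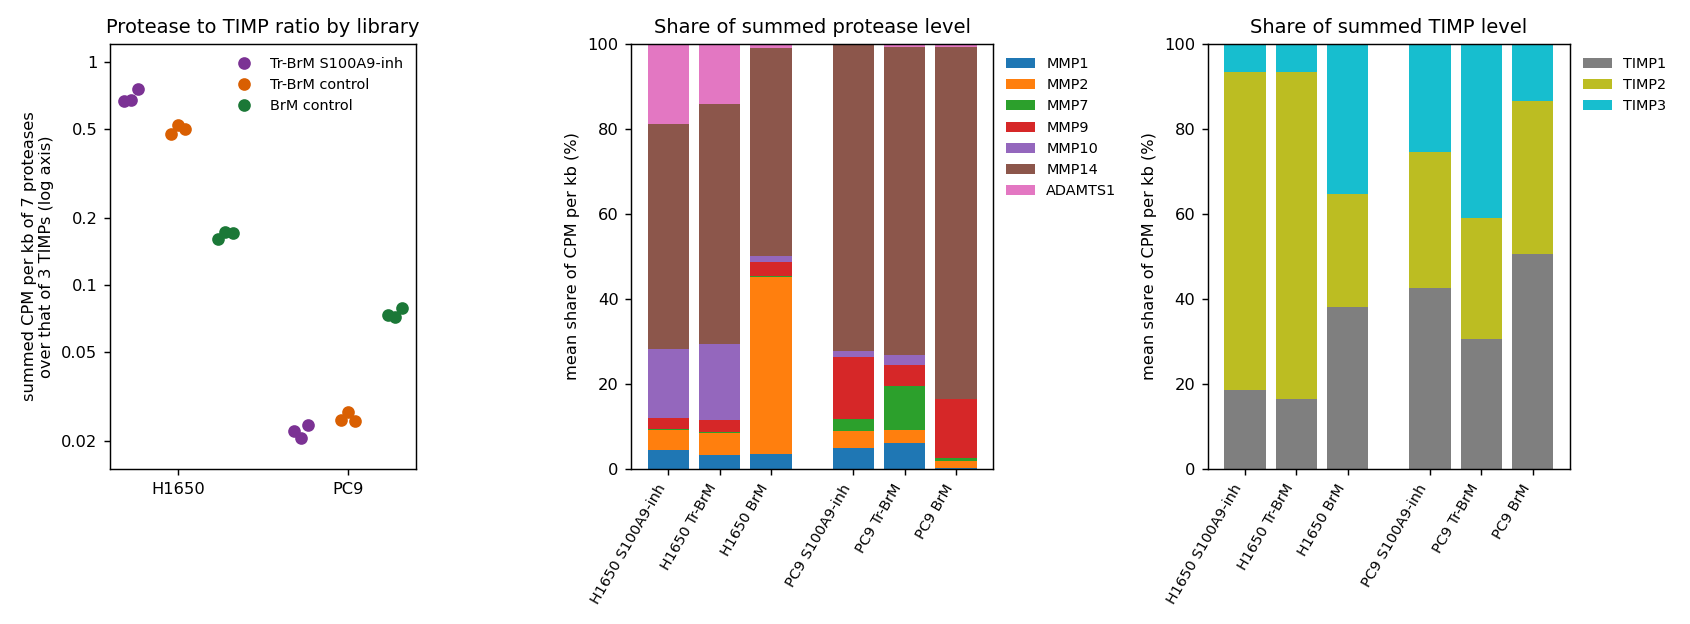
Left, the ratio of summed protease to summed TIMP level (CPM per kb, log axis) in each library of S100A9-inh, Tr-BrM control and BrM control; middle and right, the mean share of each gene in the protease sum and in the TIMP sum. The H1650 ratio was 0.161 to 0.173 in BrM controls and at least 0.477 in the other groups, and the PC9 ratio was at least 0.0722 in BrM controls and at most 0.0270 in the others.

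MMP1, MMP7 and MMP10 lie on chromosome 11 in a cluster with 6 more MMPs, in the order MMP7, MMP20, MMP27, MMP8, MMP10, MMP1, MMP3, MMP12 and MMP13. In H1650 Tr-BrM against BrM controls MMP10 and MMP1 rose, while MMP3 and MMP12 did not pass. MMP3, stromelysin-1, was at 2.35, 2.02 and 7.59 CPM in S100A9-inh libraries, at 1.35, 2.74 and 0.486 CPM in Tr-BrM controls and at 0.948, 2.18 and 2.13 CPM in BrM controls. MMP3 passed for S100A9-inh against Tr-BrM controls (1.31 ± 0.399, adjusted p = 0.0136), with overlapping groups, and the call was lost without the high S100A9-inh replicate 3 (0.44, adjusted p = 0.418) and without Tr-BrM control replicate 3 (0.91, adjusted p = 0.0867). MMP12, macrophage elastase, was at 1.73, 1.48 and 1.04 CPM in S100A9-inh libraries, 1.196, 0.768 and 0.534 CPM in Tr-BrM controls and 0.542, 0.364 and 0.532 CPM in BrM controls, and rose by 1.56 ± 0.341 in S100A9-inh libraries against BrM controls (adjusted p = 0.000232). MMP8, MMP13, MMP20 and MMP27 had at most 10 counts in any H1650 library.

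ADAMTS1 lies on chromosome 21 beside ADAMTS5, which also cuts aggrecan. In H1650 ADAMTS5 had 164 counts over the S100A9-inh libraries, 123 over the Tr-BrM controls and 1 over the BrM controls. Its ratio was 130-fold in S100A9-inh libraries and 112-fold in Tr-BrM controls, each against BrM controls, with 95% counting intervals of 23.0 to 5164 and 19.7 to 4450. ADAMTS5 was thus near 0 in BrM controls, where ADAMTS1 had 27, 30 and 36 counts.

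Of 17 other MMPs, 10 could be tested in H1650. In Tr-BrM against BrM controls 2 rose, 2 fell and 6 did not pass (median 0.16). The membrane-anchored MMP17 rose by 1.29 ± 0.145, and MMP19 by 1.73 ± 0.398, while MMP24 fell by 0.68 ± 0.164 and MMP15 by 0.31 ± 0.0591. Under S100A9 inhibition 2 rose, 1 fell and 7 did not pass against Tr-BrM controls (median 0.20), with MMP16 up by 0.69 ± 0.123 and MMP17 down by 0.45 ± 0.126. In PC9 only MMP11, MMP15, MMP17 and MMP24 were tested: MMP17 rose by 1.57 ± 0.26 in Tr-BrM against BrM controls and fell by 1.90 ± 0.273 in S100A9-inh libraries against Tr-BrM controls. Over all tested genes, 63.9% and 29.2% were called in these H1650 comparisons and 59.9% and 52.5% in those of PC9, in either direction.

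Of 18 other ADAMTS genes, 14 were tested in H1650, where 3 rose, 7 fell and 4 did not pass in Tr-BrM against BrM controls (median -0.40). ADAMTS5, with 1 count over the BrM controls, met the filter on low counts only through the Tr-BrM groups. Its place in these counts is therefore not independent of the filter. ADAMTS16 fell by 5.73 ± 0.273, ADAMTS14, which trims procollagen, by 2.50 ± 0.136, and ADAMTS15 by 2.26 ± 0.114, while ADAMTS9 rose by 0.64 ± 0.0473. Under S100A9 inhibition ADAMTS15 and ADAMTS9 rose by 1.48 ± 0.12 and 0.52 ± 0.0424 against Tr-BrM controls and 12 did not pass. In PC9 4 of 9 tested rose and 3 fell in Tr-BrM against BrM controls (median 0.32), with ADAMTS12 up by 3.80 ± 0.122, while ADAMTS15 fell by 4.001 ± 0.475, and ADAMTS6 had 3 counts over the Tr-BrM controls and 145 over the BrM controls, a ratio 45.9-fold lower (95% counting interval 15.4 to 225). In S100A9-inh libraries ADAMTS12 fell by 2.37 ± 0.103 against Tr-BrM controls, and 1 rose, 3 fell and 5 did not pass. The shares of all tested genes called in these comparisons were 63.9% and 29.2% in H1650 and 59.9% and 52.5% in PC9.

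Of 13 ADAM proteases, 10 were tested in H1650: 5 rose, 4 fell and 1 did not pass in Tr-BrM against BrM controls (median 0.18), with ADAM19 up by 0.85 ± 0.0793 and ADAM12 down by 2.13 ± 0.271. Among those that rose, ADAM33 had 77 counts over the Tr-BrM controls and 3 over the BrM controls. It met the filter on low counts only through the Tr-BrM groups, so its call is not independent of the filter. Under S100A9 inhibition 2 rose, 1 fell and 7 did not pass, the sheddases ADAM9 (0.23 ± 0.0327) and ADAM17 (0.16 ± 0.0535) being the 2 that rose. In the PC9 line 4 of 9 rose and 5 fell in Tr-BrM against BrM controls (median -0.21), ADAM8 by 1.94 ± 0.0732 and ADAM19 by 1.004 ± 0.0614. In PC9 S100A9-inh libraries 1 rose, 3 fell and 5 did not pass against Tr-BrM controls, and ADAM9 fell by 0.69 ± 0.0387, ADAM10, which sheds Notch and cadherin ectodomains, by 0.46 ± 0.0478. Beside these counts, 63.9% and 29.2% of all tested H1650 genes and 59.9% and 52.5% of those of PC9 were called.

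Among 14 other inhibitors, activators and clearance factors, 13 were tested in H1650, where 7 rose and 6 fell in Tr-BrM against BrM controls (median 0.72). The proprotein convertases, which cut the propeptide of MMP14 and ADAMTS precursors, parted: PCSK6 rose by 2.43 ± 0.124 and PCSK5 fell by 5.12 ± 0.166. LRP1, the endocytic receptor that clears proteases and TIMPs, rose by 1.28 ± 0.0442, and the serine protease inhibitor TFPI2 by 0.72 ± 0.0439. Under S100A9 inhibition 4 rose, 3 fell and 6 did not pass, with TFPI2 up by 0.70 ± 0.0397, RECK, a membrane-bound MMP inhibitor, up by 0.69 ± 0.112 and LRP1 down by 0.35 ± 0.0411. In PC9 Tr-BrM against BrM controls 3 of 12 rose, 6 fell and 3 missed the threshold (median -0.21): TFPI2 rose by 2.61 ± 0.0497, while the convertase FURIN fell by 1.63 ± 0.0452, LRP1 by 1.54 ± 0.0618 and the proteoglycan SPOCK1 by 3.29 ± 0.064. In S100A9-inh libraries of PC9 5 rose, 4 fell and 3 did not pass against Tr-BrM controls, LRP1 rising by 1.16 ± 0.0629, SPOCK1 by 1.496 ± 0.0704 and CD63, which binds TIMP1 at the cell surface, by 0.66 ± 0.037, and TFPI2 falling by 0.86 ± 0.0455. Calls over all tested genes made up 63.9% and 29.2% in the H1650 comparisons and 59.9% and 52.5% in the PC9 comparisons.

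Of 16 AP-1 and ETS factors known to act at MMP promoters, 2 rose, 11 fell and 3 did not pass in H1650 Tr-BrM against BrM controls (median -0.30), and 11 rose, 2 fell and 3 did not pass in S100A9-inh libraries against Tr-BrM controls (median 0.29). ETS1 fell by 2.64 ± 0.0464 in the first comparison and rose by 1.09 ± 0.0504 in the second, and FOSL1, an AP-1 subunit, fell by 2.79 ± 0.085 and rose by 1.16 ± 0.0959. The 2 comparisons share the Tr-BrM libraries, so their signs are not independent. JUN rose by 0.60 ± 0.0406 and ATF3 by 0.75 ± 0.0419 in the second. In PC9 Tr-BrM against BrM controls 6 of 15 rose, 7 fell and 2 missed the threshold (median 0.00), and 7 rose, 1 fell and 7 did not pass in S100A9-inh libraries against Tr-BrM controls (median 0.12), with ATF3 up by 1.17 ± 0.123 and FOSL1 down by 0.56 ± 0.0549. Here too 63.9% and 29.2% of all tested genes were called in the H1650 comparisons and 59.9% and 52.5% in those of PC9. The 5 lists were chosen with earlier results of these data known, and no test of a list as a whole was made.

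**Figure D4:**
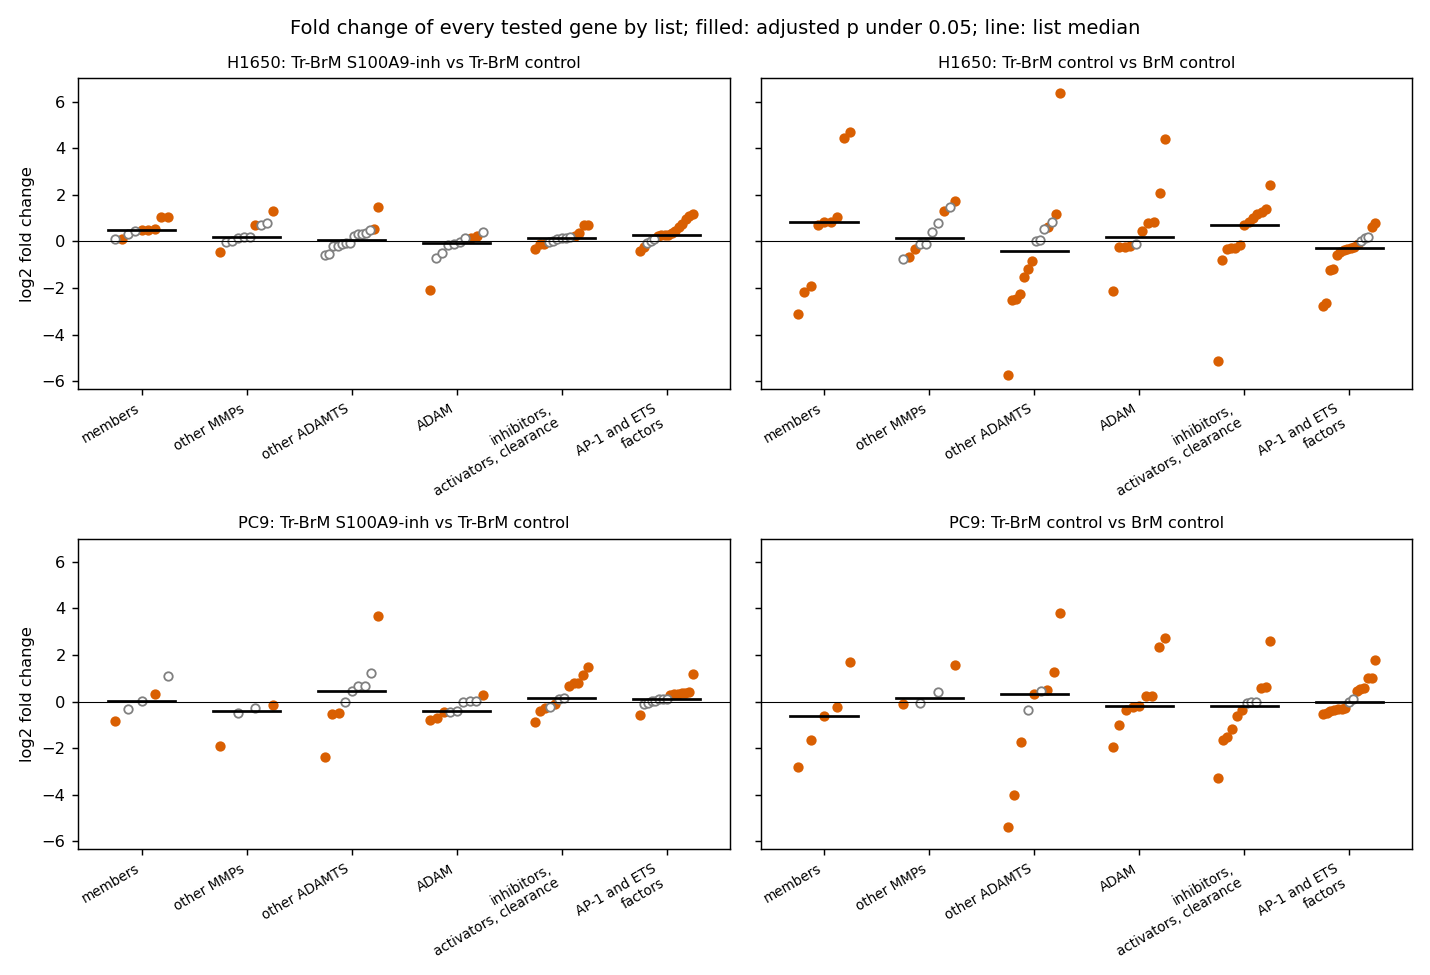
Log2 fold change of every tested gene in each list (points, filled where the adjusted p was under 0.05) with the list median (line), for S100A9-inh against Tr-BrM control (left) and Tr-BrM control against BrM control (right), H1650 above and PC9 below. The 9 tested H1650 genes of the set run between -3.11 and 4.71 for Tr-BrM against BrM controls, with a median of 0.82.

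Over all 18 libraries, with log2 CPM centred on each line's mean, the gene most like each of the 5 genes tested in both lines was sought among 10273 genes at 5 CPM or more. TIMP3 was most like LCN2, the secreted lipocalin that can bind MMP9 (Pearson r = 0.995), TIMP2 like the Wnt antagonist SFRP1 (0.995) and MMP14 like the serine protease PRSS23 (0.981). TIMP1 was most like MFSD12 (0.971) and MMP9 like SMAD4 (0.955). These values are the largest of many and describe a shared pattern over 6 groups of 3 libraries, not a relation within a group.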

How the data were processed

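The deposited values are raw counts of reads per gene, whole numbers that are not normalized, in 1 table of 9 libraries for H1650 and another for PC9. Per the submitters' processing notes STAR, GRCh38, DESeq2 1.28.1 and R 4.0.1 were used. The counting tool, the annotation release and whether strand was used are not given in the sources, which bears on MMP1, MMP9 and TIMP2, whose exons overlap genes with counts (the gene that overlaps exons of MMP2 had 0 in every library). The tables held 60558 and 60605 rows after 45 and 44 copies of the Y pseudoautosomal region, all at 0, were set aside, and 60399 identifiers were in both.

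Each line was fitted over its 9 libraries with edgeR 4.0.16 under R 4.3.3 (filterByExpr by group, scaling by TMM, the quasi-likelihood test, Benjamini-Hochberg adjustment over all tested genes, threshold 0.05), and differences between lines as interaction contrasts over 18 libraries. The SE was derived from the F statistic. Variation between libraries, which may be technical, was small (edgeR's common coefficient 0.0335 for H1650 and 0.0433 for PC9), so small differences pass. Of 18 replicate pairs no pair was identical, and chi-square per degree of freedom spanned 1.542 to 6.510. The fit was also run on simulated counts that gave every gene the same spread and changed few genes. Unlike these data in both respects, that run does not bear on the calls given here. The members, the lists, the rule for named genes (all 10 members, and of each list up to 4 genes with the smallest p and at least 1 CPM in some group) and the alternatives were chosen with earlier results of these data known, and the list genes printed were picked from these with their values known. ADAMTS5, a neighbour of ADAMTS1, was chosen after its values were seen. Ratios against 1 to 3 counts carry 95% Poisson intervals, which cover counting error only. Positions came from GENCODE 29 and promoters from RefSeq for 5 of the 10 genes. Protein motifs that had been planned were not searched because no protein sequences were used here. Alternatives were another scaling, filters, DESeq2 1.42.0 and leaving out each library in turn.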

Additional observations from a re-analysis of the deposited data

Results flagged for a closer look

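For 5 genes the change between groups differed between the lines by the interaction test (edgeR's quasi-likelihood test, Benjamini-Hochberg adjusted). For Tr-BrM controls against BrM controls the difference of log2 fold changes, PC9 minus H1650, was 4.804 for TIMP3, 1.26 for TIMP1, -1.07 for TIMP2, -2.74 for MMP14 and -3.54 for MMP9. For S100A9-inh against Tr-BrM controls it was -0.91 for TIMP3 and -0.85 for MMP14. Such a difference was called for 65.7% of all genes in the first comparison and 51.2% in the second, so it does not set these genes apart from others.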

How the results depend on the processing

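Over 901 values of single genes under alternatives, 883 kept their direction and their side of the threshold, and for 44 of 52 results every alternative did. All 284 counts of called genes under alternatives stayed within 1.5 times the main count. The number of set genes higher in PC9 Tr-BrM than BrM controls was 1 and became 3 with no filter on low counts, where MMP7 (2.55, adjusted p = 0.0138) and MMP1 (3.23, adjusted p = 0.0463) passed, but neither did with DESeq2 (adjusted p = 0.0961 and 0.0621), and ran from 1 to 2 without a library. For PC9 S100A9-inh against Tr-BrM controls the number lower was 1, became 2 with no filter, where MMP7 passed (-2.20, adjusted p = 0.0388, DESeq2 0.162), and ran from 1 to 2 without a library, as did the number higher. MMP14 was the added lower gene only without Tr-BrM control replicate 2 or S100A9-inh replicate 1. In the other such runs, and for the gene added in Tr-BrM against BrM controls, a gene not tested in the main fit passed. Such genes are not part of the 901 values or the 52 results above. ADAMTS1 in PC9 S100A9-inh against BrM controls gave -3.34 (adjusted p = 0.0488) with no filter. MMP1, MMP14 of PC9 and TIMP2 of H1650 are given with the results. For S100A9-inh against Tr-BrM controls, MMP9 of H1650 passed without Tr-BrM control replicate 3 (0.58, adjusted p = 0.0299) or S100A9-inh replicate 2 (0.50, adjusted p = 0.0445), MMP9 of PC9 without Tr-BrM control replicate 1 (1.78, adjusted p = 0.043), and TIMP1 of H1650 with no filter (0.32, adjusted p = 1.15e-05) and without Tr-BrM control replicate 1 (0.42, adjusted p = 0.0157) or S100A9-inh replicate 3 (0.48, adjusted p = 0.00049). The difference between lines for TIMP1 in that comparison, 0.04 and not called, ran up to 0.21 (without H1650 S100A9-inh replicate 1) and changed sign to -0.08, -0.02 and -0.14 without H1650 Tr-BrM control replicates 1 and 2 and S100A9-inh replicate 3, and to -0.04 and -0.04 without PC9 Tr-BrM control replicate 2 and S100A9-inh replicate 1. The cause was not tested. No paired analysis was possible because the labels give no replicate numbers shared between groups. Depth limits MMP1, MMP2, MMP7, MMP10 and ADAMTS1 in PC9 and MMP7 in H1650.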

Other observations

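In H1650, MMP1 and its chromosome 11 neighbour MMP3 varied between libraries of one group far more than MMP10 beside them. In Tr-BrM controls MMP1 was at 2.86, 3.95 and 1.07 CPM where MMP3 was at 1.35, 2.74 and 0.486 CPM in the same libraries, while MMP10 stayed at 12.5, 12.9 and 12.5 CPM. In BrM controls MMP1 was at 0.813, 2.05 and 1.77 CPM and MMP3 at 0.948, 2.18 and 2.13 CPM. In S100A9-inh libraries the genes parted, with MMP1 at 6.31, 4.89 and 5.56 CPM and MMP3 at 2.35, 2.02 and 7.59 CPM. TIMP1, at 31.1, 27.0 and 19.0 CPM in S100A9-inh libraries and 24.6, 22.1 and 15.4 CPM in Tr-BrM controls, also varied more than TIMP2, at 373 to 380 and 345 to 353 CPM. These values were noticed after the data were seen and were not tested.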
